A study of Mus musculus with 24 samples.

Results

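The extracellular matrix genes described here are 43 genes of collagens, laminins and associated matrix proteins, chosen by name and found by their mouse gene identifiers among the 30153 of the deposited table. They comprise 7 fibrillar and associated collagens, 3 collagen VI chains, 8 basement membrane collagens, 7 laminin chains, 3 basement membrane linkers, 4 glycoprotein and elastic fibre genes, 3 matricellular genes, 3 small leucine-rich proteoglycans, 4 remodelling genes and the cytokine gene Tgfb1. Values are TPM, transcripts per 1000000 corrected for transcript length, so that levels of different genes can be set side by side. Polyadenylated RNA was measured in 24 libraries, 4 in each of 6 groups, and all are labelled as kidney of C57/BL6 mice.

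The series describes hypertensive mice that overexpress the human angiotensin receptor type 1, and the labels give haplotype I (Hap-I) or haplotype II (Hap-II). A western diet is stated for 3 groups: adult Hap-I, aged Hap-I and adult Hap-II mice, marked WD where they are first named in a comparison. The other 3 groups are adult Hap-I mice, aged Hap-I mice and C57 adults, whose label names no haplotype. No diet is stated for the last 3 groups, and the words without the diet mean only this below. The labels name no sex, age in weeks, transgene promoter or founder line. The design gives 4 animals a group, and the number of litters or cages behind them is not given in the sources used here. No group is labelled as C57 mice on western diet, or as Hap-II mice with no diet stated. Transgene, haplotype, diet and title series therefore cannot be told apart in any comparison with C57 adults. Aged Hap-I mice differ from C57 adults in age as well, and Y-linked transcripts, given below, differed too.

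The 8 libraries labelled as Hap-I adults or aged Hap-I mice, with no diet stated, carried brain and not kidney transcripts. The summed TPM of 6 neuron markers was 3355 to 4377 there and at most 4.07 in the other 16 libraries. The summed TPM of 7 tubule markers was 0.173 to 7.01 there, against 446 to 5866 in the 16. These 8 are called brain-like below and serve only as a reference, and all kidney comparisons were fitted on the other 16 libraries. Mitochondrially encoded transcripts took 12.4 to 16.9% of TPM in C57 adults and 21.2 to 35.7% in the 12 libraries on western diet. At least 5 TPM of the Y-linked Eif2s3y were present in 7 of the 12 diet libraries, 0 of the 4 C57 libraries and all 8 brain-like ones. TPM keep no read totals, so the depth behind each value is unknown. The p-values of limma rest on the spread between libraries within groups. That spread is pooled over all groups in a fit and moderated across genes, so it is not that of the compared groups alone.

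Kidney cells rest on basement membranes and are separated by interstitial matrix. Basement membranes are thin sheets of laminin and collagen IV networks, bridged by nidogens and perlecan, that underlie tubules and vessels and form the filter of the glomerulus. Interstitial matrix lies between tubules and is built by fibroblasts and pericytes from fibrillar collagens I and III, collagen VI microfilaments, fibronectin and proteoglycans, and its build-up is the hallmark of renal fibrosis. TGF-beta 1, encoded by Tgfb1, is the best known inducer of this matrix, metalloproteinases such as Mmp2 degrade it, and Timp3 encodes a matrix-bound inhibitor of such proteases that is abundant in kidney.

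Collagen IV genes lie in head-to-head pairs that share a start region. The start regions of the pairs Col4a1 with Col4a2 and Col4a3 with Col4a4 are shown because the results on collagen IV give values for both pairs. Sequences are from RefSeq promoter windows on GRCm38.p6, and windows were found for 27 of the 43 genes. Capitals mark matches to the motif GGGCGG, to CCAAT and to the motif TATAAA, each on either strand, and no match overlaps another. The first stretch, chr8:11312805-11312826 on the plus strand, is the 22 bases where the annotated starts of Col4a1 (minus strand) and Col4a2 (plus strand) overlap. The second, chr1:82586850-82586920 on the plus strand, is the 71 bases between the starts of Col4a4 (minus strand) and Col4a3 (plus strand).
Col4a1_Col4a2: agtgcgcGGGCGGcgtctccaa
Col4a4_Col4a3: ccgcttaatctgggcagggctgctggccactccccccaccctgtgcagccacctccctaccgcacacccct

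Upstream stretches are shown for 3 genes that stayed lower than in C57 adults after the shift of all genes was removed (Col3a1, Col6a3 and Postn), for the cytokine gene Tgfb1, and for Timp3, which did not. Each lies upstream of the annotated start and holds no base of an annotated exon. Col3a1 lies on the plus strand at chr1:45311288-45311537, Col6a3 on the minus strand at chr1:90843972-90844221, Postn on the plus strand at chr3:54360857-54361106, Tgfb1 on the plus strand at chr7:25686752-25687001 and Timp3 on the plus strand at chr10:86300162-86300371. All are printed 5′ to 3′ on the gene's own strand.
Col3a1: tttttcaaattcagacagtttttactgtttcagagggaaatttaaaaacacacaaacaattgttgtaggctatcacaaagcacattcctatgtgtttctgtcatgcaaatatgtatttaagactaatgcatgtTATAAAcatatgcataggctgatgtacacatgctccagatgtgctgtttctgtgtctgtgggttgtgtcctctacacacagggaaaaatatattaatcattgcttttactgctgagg
Col6a3: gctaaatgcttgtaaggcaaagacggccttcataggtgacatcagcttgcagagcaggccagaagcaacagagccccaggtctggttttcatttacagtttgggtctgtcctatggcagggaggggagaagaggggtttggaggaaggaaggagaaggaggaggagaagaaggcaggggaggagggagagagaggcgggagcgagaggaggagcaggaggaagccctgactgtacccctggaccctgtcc
Postn: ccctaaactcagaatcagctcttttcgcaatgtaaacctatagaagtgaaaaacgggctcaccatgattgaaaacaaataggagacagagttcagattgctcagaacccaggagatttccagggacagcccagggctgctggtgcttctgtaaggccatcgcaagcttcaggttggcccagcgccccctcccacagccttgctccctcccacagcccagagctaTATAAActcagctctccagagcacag
Tgfb1: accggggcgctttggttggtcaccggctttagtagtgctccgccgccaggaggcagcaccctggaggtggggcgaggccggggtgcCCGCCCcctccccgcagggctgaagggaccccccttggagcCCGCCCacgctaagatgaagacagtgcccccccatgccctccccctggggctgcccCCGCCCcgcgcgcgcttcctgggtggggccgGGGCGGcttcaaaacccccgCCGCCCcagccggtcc
Timp3: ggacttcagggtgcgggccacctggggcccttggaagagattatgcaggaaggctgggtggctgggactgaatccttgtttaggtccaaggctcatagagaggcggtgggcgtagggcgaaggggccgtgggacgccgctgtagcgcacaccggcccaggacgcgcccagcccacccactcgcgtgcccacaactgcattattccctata

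The overlap of Col4a1 and Col4a2 holds 1 match to GGGCGG and the stretch between Col4a4 and Col4a3 none. The stretches of Col3a1 and Postn each hold 1 TATAAA, that of Tgfb1 holds 5 matches to GGGCGG, and those of Col6a3 and Timp3 hold none of the 3 motifs. GC content was 35.2% upstream of Col3a1 and 75.2% upstream of Tgfb1. Over the RefSeq windows, GGGCGG was present in 64.5% of the 31 windows of these genes and in 35.7% of all 32851 windows. TATAAA was present in 16.1% and 13.6%, and CCAAT in 25.8% and 37.4%. These are letter matches and say nothing of which factors bind there.

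In C57 adults, the mean of Timp3 was the highest of the 43 genes at 461 ± 127 TPM (SD, n = 4). Bgn, which encodes the proteoglycan biglycan, followed at 127 ± 26.4, and Sparc, a collagen-binding glycoprotein, at 109 ± 18.9. Timp3 and Bgn did not overlap between C57 libraries, whereas Bgn at 103 to 157 and Sparc at 82.3 to 124 did. Dcn (decorin, 54.4 ± 20.7) and Col18a1 (collagen XVIII of basement membranes, 50.5 ± 4.31) came next, within the spread of one another. At the low end stood Lox, a collagen cross-linking enzyme, at 0.979 ± 0.287 and Col4a6 at 1.07 ± 0.448. Neither reached 1 TPM in 4 of the 16 kidney libraries, the filter used, so they were not tested, which left 41 genes. In C57 adults the summed TPM of basement membrane collagens was 202 ± 28.5, of laminins 101 ± 8.55, of fibrillar and associated collagens 79.9 ± 17.1 and of collagen VI 27.8 ± 6.69. The basement membrane collagens thus had the highest of these 4 sums.

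The first question was how matrix genes in the transgenic mice on western diet compared with C57 adults. Of the 16 kidney libraries, a C57 library held the highest value for 40 of the 43 genes. That count was not made over all genes, so nothing particular to matrix genes can be read from it. By limma on log2(TPM + 1), with Benjamini-Hochberg adjustment over 12923 genes and a threshold of 0.05, 41 of the 41 tested were lower in WD Hap-I adults, where 59.7% of all genes were also lower. In WD Hap-II adults 37 were lower, against 36.9% of all genes, and in WD aged Hap-I mice 24 were lower, against 16.3%. Values for the 3 groups are given below in this order, Hap-I adults, Hap-II adults and aged Hap-I mice. None was higher in any of these 3 comparisons, which share the C57 libraries, where 2.28%, 2.73% and 1.24% of all genes were higher. Of the 41, 7 passed the filter through the C57 libraries alone (Col5a1, Lama2, Fbn1, Eln, Svep1, Tnc and Mmp2). The filter thus favoured a lower value on the diet for these 7, and their calls lend no support. With no filter on low values 41, 38 and 20 of all 43 were lower, against 8401, 4823 and 2084 of 22319 genes. Leaving out 1 library changed the count in aged Hap-I mice, and that over all genes, which was 2100 of 12923. Without aged libraries 1 and 4 in turn, 14 and 15 were lower, against 394 of 12860 and 477 of 12868 genes. Without C57 libraries 2, 3 and 4 in turn, 10, 9 and 13 of 38 were lower, against 340 of 12749, 316 of 12751 and 304 of 12746 genes. The other single omissions gave 23 to 30, against 1482 to 4584 genes. Without a test, the highest value on western diet lay below the lowest C57 value for 40, 38 and 27 of all 43 genes. The same held for 55.3%, 26.7% and 20% of the 12923 genes tested. Unlike those shares, the counts also cover the untested Lox and Col4a6. They cover the 7 genes named above as well, whose separation lends no support.

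A large part of this difference was shared by all genes. On deposited TPM the median difference of all genes was -0.80 in Hap-I adults, -0.59 in Hap-II adults and -0.48 in aged Hap-I mice on the log2(TPM + 1) scale, and the median of the matrix genes was -1.65, -1.55 and -1.05. After median-of-ratios rescaling, which centres the typical gene near 0, the medians of the matrix genes were -0.78, -1.01 and -0.52. On that scale 25, 29 and 12 of the 41 were lower, against 14.2%, 9.77% and 4.09% of all genes, and again none was higher. Of the 7 genes that passed the filter through the C57 libraries alone, 5, 7 and 4 are among these. Their calls lend no support, since the filter favoured a lower value on the diet for them. In a split added after the data were seen, of the other 34, 20, 22 and 8 were lower, against 13.5%, 9.02% and 3.65% of the 12206 genes that pass the filter on the 12 diet libraries alone, with rescaled medians of -1.04, -1.05 and -0.51 against 0.02, 0.02 and 0.04. Of all genes, 17.8% were then higher in Hap-I adults, 12.9% in Hap-II adults and 3.55% in aged Hap-I mice. Differences after rescaling are given below as rescaled values, with their sign relative to this shift. In whole tissue, fewer cells of a type and less RNA per cell cannot be told apart.

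**Figure D1:**
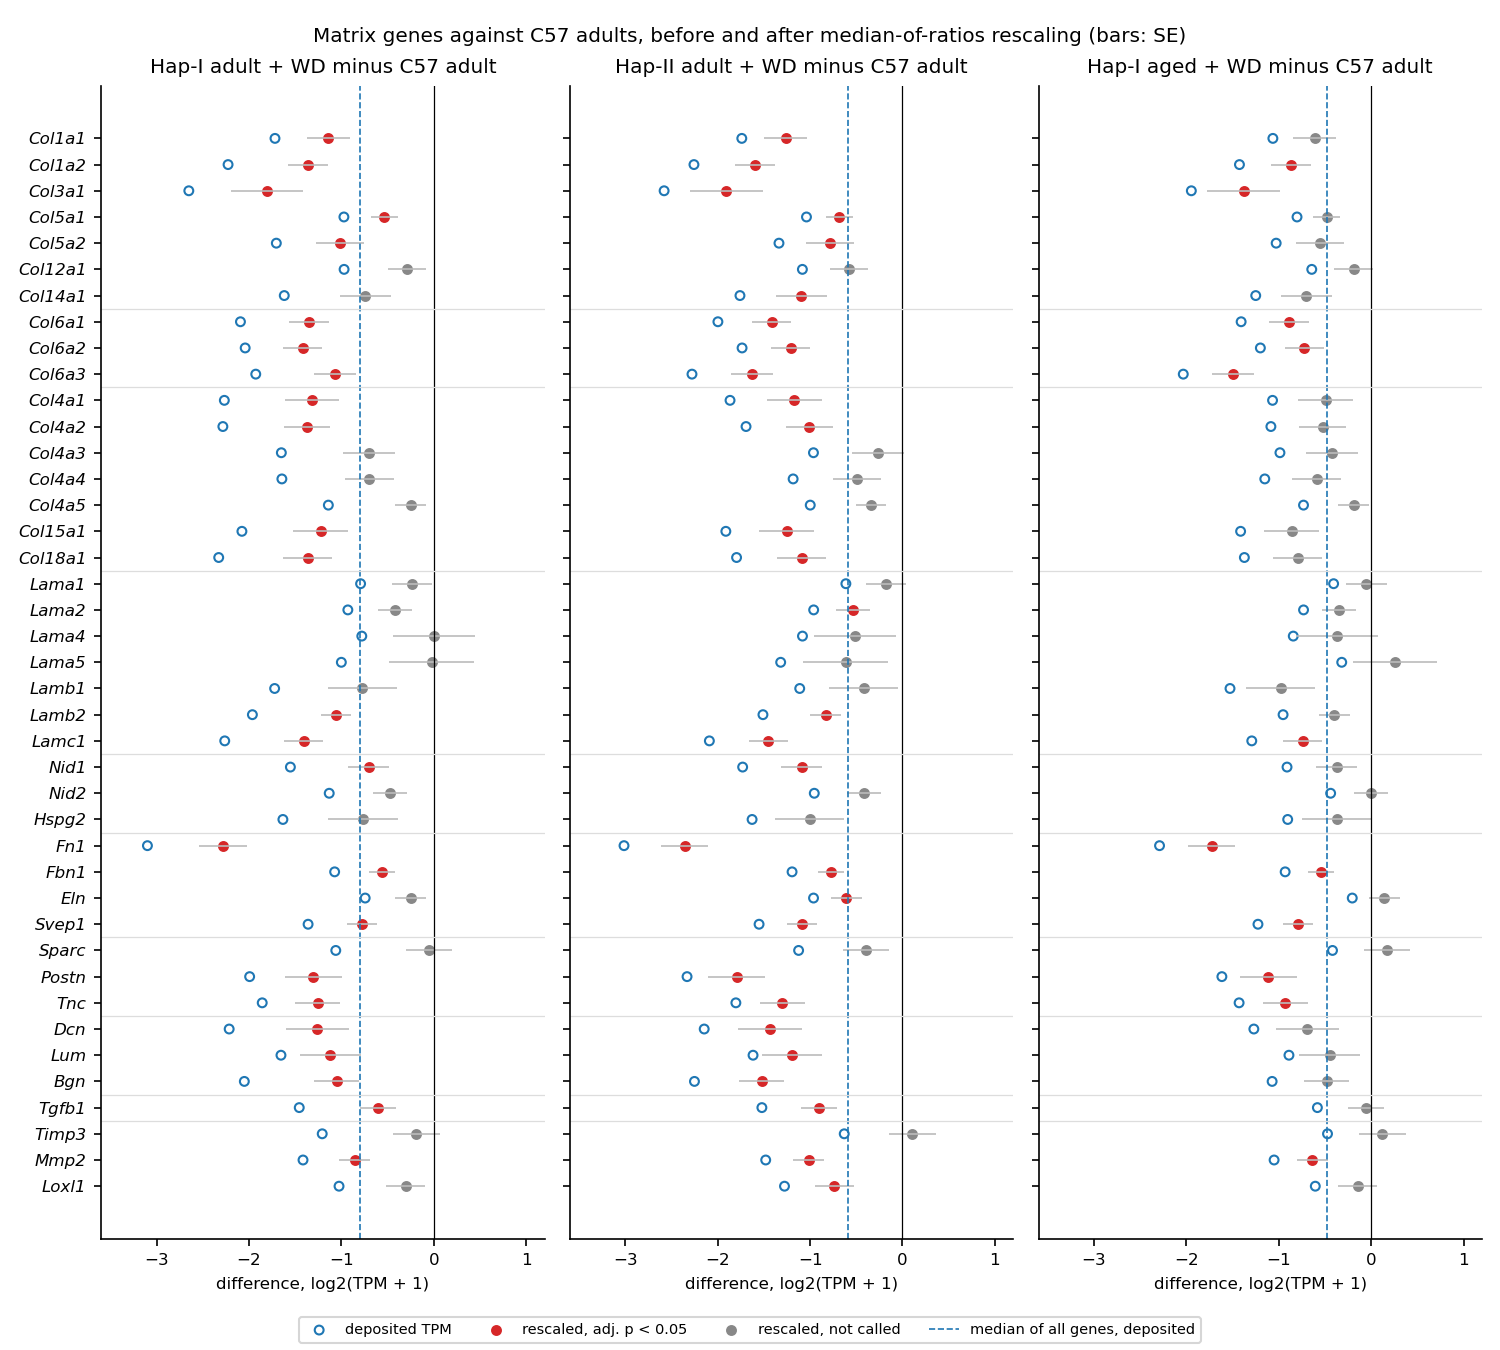
Differences on western diet minus C57 adults for the 41 tested genes, in order of role, with log2(TPM + 1) on the x axis; open circles are deposited TPM, filled points rescaled TPM with SE (red where limma's adjusted p is below 0.05, n = 4 a group), and the dashed line is the median of all genes. The deposited points lie left of 0 for all 41 genes in all 3 panels, and rescaled points of Fn1 lie farthest left in each panel while those of Timp3 lie between -0.19 and 0.12.

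Fibronectin, encoded by Fn1 at chr1:71585520-71653200 on the minus strand, is the adhesive glycoprotein onto which collagen fibrils are laid. C57 libraries held 16.6, 32.8, 34.6 and 15.6 TPM of Fn1. WD Hap-I adults held 4.20, 1.88, 1.39 and 0.82, Hap-II adults 2.67, 1.99, 1.37 and 2.17, and aged Hap-I mice 4.13, 4.44, 4.36 and 3.10. Every C57 library lay above every library on western diet, by 12-fold in the means for Hap-I adults, 12.1-fold for Hap-II adults and 6.21-fold for aged Hap-I mice. The rescaled differences were -2.28 (limma, adjusted p = 0.000209), -2.36 (adjusted p = 0.000169) and -1.72 (adjusted p = 0.00318). Among the 41 genes, Fn1 had the largest rescaled difference in each comparison.

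Interstitial collagens were next. Col3a1, the chain of collagen III, was at 33.2, 39.2, 35.4 and 15.3 TPM in C57 libraries and at 9.91, 4.00, 4.65 and 0.696 in WD Hap-I adults. Hap-II adults held 6.52, 3.46, 2.49 and 4.44, and aged Hap-I mice 7.68, 8.2, 6.97 and 4.80. Groups on western diet did not overlap with C57, and Hap-I adult library 4 was far below its 3 companions. Rescaled differences of Col3a1 were -1.81 (limma, adjusted p = 0.00533), -1.91 (adjusted p = 0.00655) and -1.38 (adjusted p = 0.0457) for Hap-I adults, Hap-II adults and aged Hap-I mice. Col1a2, a chain of collagen I, was at 18.2 ± 2.69 TPM in C57 adults and at 3.51 ± 2.53, 3.04 ± 0.719 and 6.24 ± 1.73 in the 3 groups, and its rescaled difference passed in all 3 (limma, adjusted p = 0.00133, 0.000854 and 0.0279). Col1a1 was at 4.37 ± 0.957 against 0.707 ± 0.739, 0.625 ± 0.418 and 1.54 ± 0.284 TPM, and its rescaled difference missed the threshold in aged Hap-I mice (-0.61, limma, adjusted p = 0.103). Of the 7 fibrillar and associated collagens, 5, 6 and 2 were lower after rescaling, against 14.2%, 9.77% and 4.09% of all genes. Both adult counts include Col5a1, one of the 7 genes that passed the filter through C57 libraries alone. Col12a1, a fibril-associated collagen, was lower only on deposited TPM, with rescaled differences of -0.29, -0.58 and -0.19 (limma, adjusted p = 0.303, 0.056 and 0.568).

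Collagen VI, a microfilament network that anchors cells to the interstitium, needs all 3 of its chains. After rescaling, 3 of 3 chain genes were lower in each comparison, against 14.2%, 9.77% and 4.09% of all genes. Col6a3, the longest chain, was at 8.34, 13.0, 18.5 and 11.1 TPM in C57 libraries and at 1.26 to 3.59 in the 12 libraries on western diet, with no overlap. Col6a1 fell from 9.19 ± 1.71 TPM in C57 adults to 1.54 ± 1.18, 1.63 ± 0.893 and 2.88 ± 0.862, with rescaled differences of -1.35, -1.42 and -0.89 (limma, adjusted p = 0.00133, 0.00163 and 0.0258). Unlike Col6a1 and Col6a2, Col6a3 was not nearer to C57 in aged Hap-I mice (2.30 ± 0.743 TPM) than in Hap-I adults (2.54 ± 0.733).

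**Figure D2:**
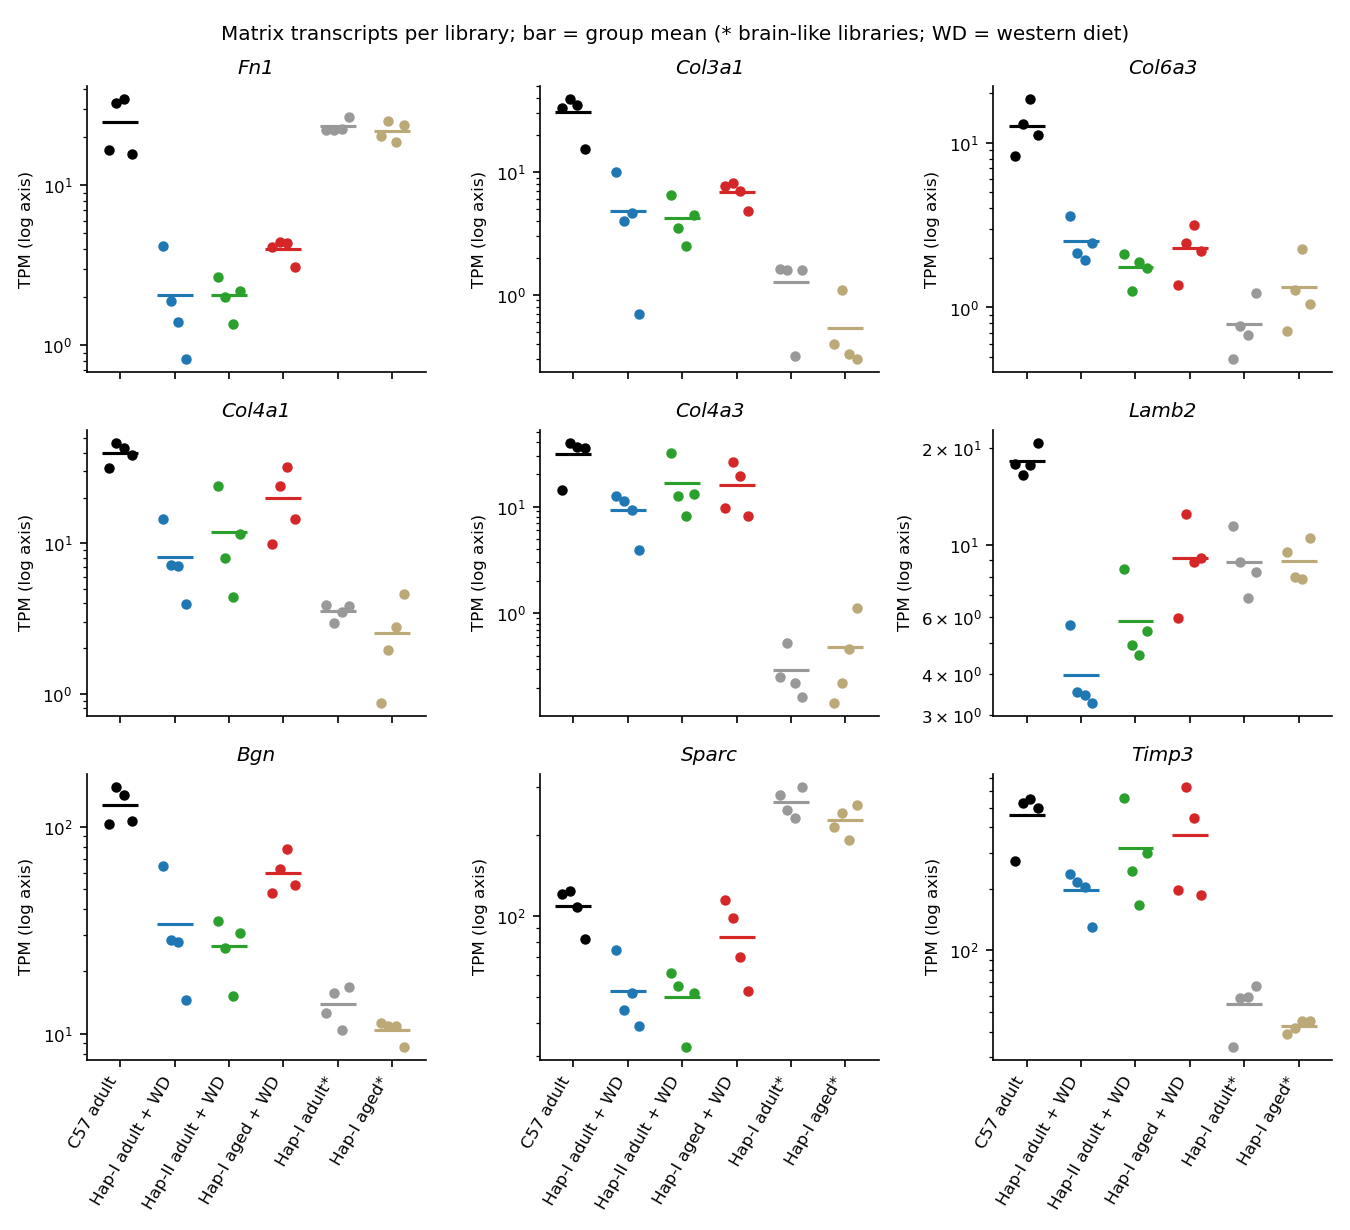
TPM of 9 matrix genes on log axes, 1 point per library in 6 groups, with bars at the group means; WD is western diet and asterisks mark the brain-like libraries. C57 libraries lie above all 12 libraries on western diet for Fn1, Col3a1, Col6a3 and Lamb2, whereas Timp3 overlaps in 2 groups and Sparc in 1.

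Fibril-associated proteins of the interstitium followed. Postn encodes periostin, a matricellular protein of fibroblasts. Its C57 values of 9.40, 7.03, 7.59 and 3.24 TPM all lay above the 0.223 to 2.72 TPM of the 12 libraries on western diet, and rescaled differences were -1.30, -1.79 and -1.12 (limma, adjusted p = 0.00767, 0.00278 and 0.0407). Tnc, which encodes tenascin-C, was at 4.64 ± 1.05 TPM in C57 adults and at 0.561 ± 0.303, 0.646 ± 0.472 and 1.11 ± 0.468 in the 3 groups. Among small leucine-rich proteoglycans, which coat collagen fibrils, Bgn was at 103, 157, 142 and 106 TPM in C57 libraries against 14.5 to 64.4 in Hap-I adults, 15.1 to 35.0 in Hap-II adults and 48.1 to 77.8 in aged Hap-I mice. No library on western diet reached the C57 range of Bgn. All 3 of Bgn, Dcn and Lum were lower after rescaling in Hap-I and in Hap-II adults, against 14.2% and 9.77% of all genes. None of the 3 passed in aged Hap-I mice, where 4.09% of all genes were lower. Bgn had a rescaled difference of -0.48 there (limma, adjusted p = 0.206) and Dcn of -0.69 (adjusted p = 0.196). Fbn1, the microfibril protein fibrillin-1, and Svep1, an adhesion protein, were low (2.18 ± 0.574 and 3.27 ± 1.12 TPM in C57 adults) and are among the 7 that passed the filter through C57 libraries alone, as is Tnc. Fbn1 was at 0.502 ± 0.214, 0.372 ± 0.0764 and 0.648 ± 0.106 TPM on western diet.

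Sparc was one of several abundant matrix genes, with Timp3, Lama5, Col4a3 and Col4a4 below, that did not pass after rescaling. C57 libraries held 120, 124, 108 and 82.3 TPM of Sparc, WD Hap-I adults 74.6, 44.8, 51.8 and 38.9, Hap-II adults 61.3, 54.7, 32.7 and 51.4, and aged Hap-I mice 114, 97.8, 70.4 and 52.4. Only the aged group overlapped with C57. Deposited TPM placed Sparc lower in Hap-I and Hap-II adults (limma, adjusted p = 0.00467 and 0.00821), and rescaled differences were -0.05, -0.40 and 0.17 (adjusted p = 0.886, 0.254 and 0.68), so that the sign in aged mice turned from -0.42 on deposited TPM.

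Collagen IV, the network collagen of basement membranes, assembles from alpha 1 and alpha 2 chains in most basement membranes, and from alpha 3, alpha 4 and alpha 5 chains in the glomerular and some tubular ones. Col4a1 was at 31.6, 46.5, 42.6 and 38.8 TPM in C57 libraries, at 14.5, 7.12, 7.07 and 3.93 in WD Hap-I adults, at 23.9, 7.98, 4.40 and 11.6 in Hap-II adults and at 9.87, 24.0, 31.9 and 14.6 in aged Hap-I mice. Hap-I and Hap-II adults did not overlap with C57, and aged library 3 reached the C57 range. Rescaled differences of Col4a1 were -1.32 and -1.17 in the adults (limma, adjusted p = 0.00591 and 0.0144) and -0.49 in the aged (adjusted p = 0.283). Col4a2 moved beside it, from 25.0 ± 3.92 TPM in C57 adults to 4.60 ± 2.30, 7.76 ± 4.49 and 12.3 ± 6.16, with rescaled differences of -1.37, -1.01 and -0.52 (limma, adjusted p = 0.00251, 0.0143 and 0.183).

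Glomerular-type chains did not pass after rescaling in any of the 3 comparisons. Col4a3 was at 14.1, 39.6, 36.4 and 35.3 TPM in C57 libraries, at 12.7, 11.3, 9.37 and 3.94 in WD Hap-I adults, at 32.0, 12.7, 8.09 and 13.1 in Hap-II adults and at 9.70, 26.2, 19.3 and 8.15 in aged Hap-I mice. C57 library 1 stood far below its companions and lay within the range of the Hap-II and aged groups. Rescaled differences were -0.70, -0.26 and -0.42 for Col4a3 (limma, adjusted p = 0.0687, 0.521 and 0.339), -0.70, -0.49 and -0.59 for Col4a4 (adjusted p = 0.0539, 0.189 and 0.154) and -0.25, -0.34 and -0.19 for Col4a5 (adjusted p = 0.258, 0.145 and 0.468). A difference between the chain pairs was not tested in these fits. Their ratio within a library does not depend on scaling between libraries. The TPM ratio of Col4a3 to Col4a1 was 0.765 ± 0.213 in C57 adults (SD, n = 4), 1.2 ± 0.320 in WD Hap-I adults, 1.47 ± 0.307 in Hap-II adults and 0.809 ± 0.267 in aged Hap-I mice. Only Hap-II adults, at 1.13 to 1.84, lay wholly above the C57 range of 0.448 to 0.909. Within a pair, the ratio of Col4a1 to Col4a2 was 1.59 ± 0.0219 in C57 adults and 1.10 to 1.87 over the 12 libraries on western diet, and that of Col4a3 to Col4a4 was 1.14 ± 0.213 and 0.921 to 1.58. The podocyte markers, from the cells that make alpha 3 to alpha 5 chains, summed to 101 to 168 TPM in C57 libraries and 42.9 to 208 on western diet, and their part in the Col4a3 values was not tested.

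**Figure D3:**
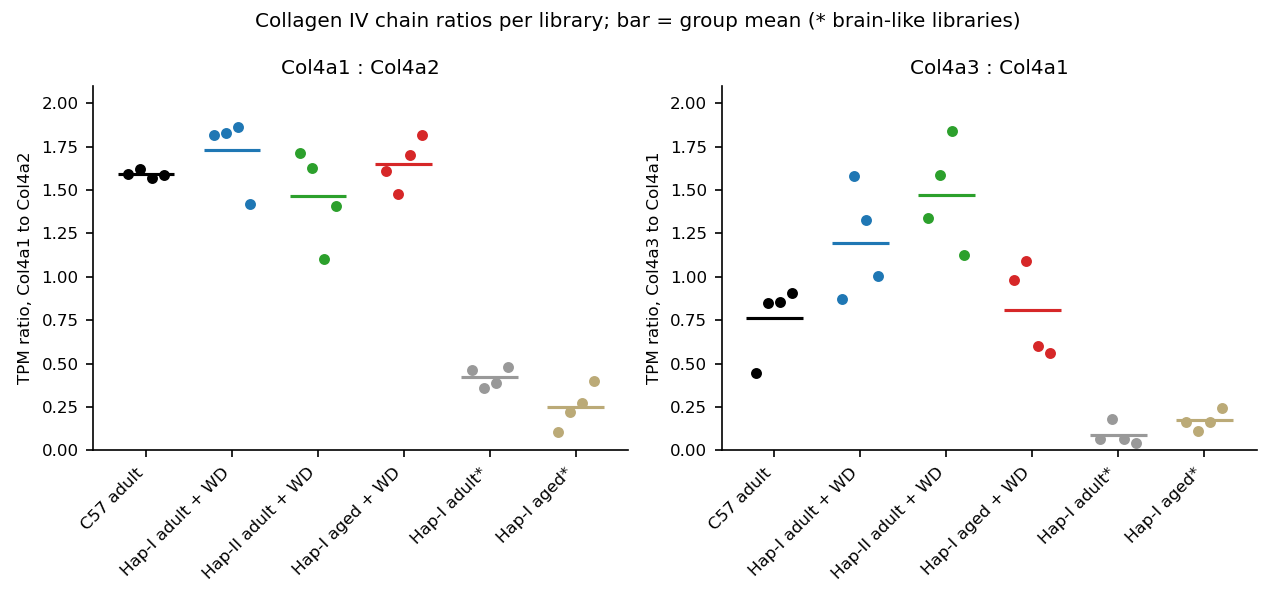
TPM ratios of Col4a1 to Col4a2 (left) and Col4a3 to Col4a1 (right) per library, with bars at the group means of 4 libraries and asterisks on brain-like groups. The left ratio is above 1 in all 16 kidney libraries and at most 0.482 in the 8 brain-like ones, and the right ratio is highest in Hap-II adults.

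Col15a1 and Col18a1 encode the multiplexin collagens XV and XVIII, the latter the source of endostatin. Col18a1 was at 49.8, 47.8, 47.7 and 56.8 TPM in C57 libraries and at 5.71 to 15.9 in Hap-I adults, 5.72 to 29.4 in Hap-II adults and 9.67 to 33 in WD aged Hap-I mice, with no overlap. Its rescaled differences were -1.36, -1.09 and -0.80 (limma, adjusted p = 0.00321, 0.0128 and 0.0741). Col15a1 gave -1.22, -1.25 and -0.86 (limma, adjusted p = 0.00849, 0.0113 and 0.0817), from 15.7 ± 4.17 TPM in C57 adults and 3.06 ± 1.59, 3.34 ± 0.631 and 5.40 ± 2.46 on western diet. Hence 4, 4 and 0 of the 7 tested basement membrane collagens were lower after rescaling, against 14.2%, 9.77% and 4.09% of all genes.

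Laminins are cross-shaped trimers of an alpha, a beta and a gamma chain. Lamc1, the gamma chain shared by most of them, was at 14.9, 13.9, 15.8 and 16.2 TPM in C57 libraries, and at 4.05, 2.33, 1.69 and 1.84 in Hap-I adults, 6.07, 2.00, 1.57 and 2.80 in Hap-II adults and 5.91, 7.75, 4.53 and 4.65 in WD aged Hap-I mice. These did not overlap, and Lamc1 was the 1 laminin gene lower after rescaling in the aged comparison as well (limma, adjusted p = 0.00125, 0.00126 and 0.0453). Lamb2, the beta chain of mature glomerular basement membrane, was at 18.1 ± 1.80 TPM in C57 adults and at 3.98 ± 1.14, 5.85 ± 1.76 and 9.12 ± 2.66, with rescaled differences of -1.06, -0.83 and -0.40 (limma, adjusted p = 0.00129, 0.00539 and 0.129). Lama5, the alpha chain of adult tubular and glomerular laminin, was at 31.4 ± 6.36 TPM in C57 adults and at 15.6 ± 5.14, 12.4 ± 4.80 and 29.1 ± 21.2 on western diet. Its rescaled differences of -0.02, -0.62 and 0.26 did not pass (limma, adjusted p = 0.973, 0.345 and 0.742), and that of the aged group turned sign from -0.32 on deposited TPM, with library 4 at 59.9 TPM against 14.5 to 26.2 in the others. In all, 2, 3 and 1 of the 7 laminin chains were lower after rescaling, against 14.2%, 9.77% and 4.09% of all genes, and the 3 in Hap-II adults include Lama2, which passed the filter through C57 alone.

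Of the basement membrane linkers, Nid1, which encodes nidogen-1, was at 11.9 ± 3.91 TPM in C57 adults and at 3.58 ± 2.08, 2.81 ± 0.758 and 5.70 ± 1.17 on western diet. It was lower after rescaling in the adults (-0.70 and -1.09, limma, adjusted p = 0.0268 and 0.00642) and at -0.37 in the aged group (adjusted p = 0.283). Hspg2, which encodes perlecan, was at 12.6 ± 3.90 against 3.45 ± 1.63, 3.60 ± 2.03 and 7.01 ± 4.27 TPM, and its rescaled differences of -0.77, -1.0 and -0.37 missed the threshold (limma, adjusted p = 0.127, 0.064 and 0.534).

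Tgfb1 was at 10.2, 10.6, 10.1 and 8.09 TPM in C57 libraries, at 4.50, 2.37, 2.36 and 2.72 in Hap-I adults, at 5.17, 2.44, 1.84 and 2.21 in Hap-II adults and at 6.57, 6.91, 6.49 and 4.84 in WD aged Hap-I mice. All 12 values lay below the lowest C57 value. Its rescaled differences were -0.60, -0.90 and -0.05 (limma, adjusted p = 0.0301, 0.00768 and 0.88), so the value in aged mice was that of the typical gene. Of 25 other genes of TGF-beta signalling, 23 were tested, and 6, 3 and 1 were lower after rescaling, against 14.2%, 9.77% and 4.09% of all genes. Then 1, 0 and 0 were higher, against 17.8%, 12.9% and 3.55%. Tgfbr3, the co-receptor betaglycan, was lower after rescaling in each comparison (13.9 ± 3.62 TPM in C57 adults and 3.51 ± 1.32, 4.69 ± 2.52 and 4.65 ± 1.22 on western diet). Itgav, an integrin chain that helps release latent TGF-beta, was the higher one, at 52.3 ± 29.7 TPM in WD Hap-I adults and 32.8 ± 1.67 in C57 adults (rescaled adjusted p = 0.0132, deposited TPM 0.124, limma).

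The remodelling genes are Timp3, Mmp2, Lox and Loxl1. Timp3 was at 273, 525, 550 and 495 TPM in C57 libraries, at 235, 216, 205 and 130 in Hap-I adults, at 556, 245, 166 and 299 in Hap-II adults and at 197, 634, 447 and 187 in WD aged Hap-I mice. Hap-I adults alone did not overlap with C57. Deposited differences were -1.21 (limma, adjusted p = 0.0178), -0.63 (adjusted p = 0.207) and -0.47 (adjusted p = 0.367), while rescaled ones were -0.19, 0.11 and 0.12, none of which passed (adjusted p = 0.591, 0.784 and 0.782). Timp3 took 27.4 to 41.5% of the summed TPM of the 43 genes in C57 libraries and 35.4 to 61.2% on western diet. Mmp2, the gelatinase, was at 3.16 ± 0.470 TPM in C57 adults and at 0.593 ± 0.446, 0.488 ± 0.133 and 1.03 ± 0.373 on western diet, and it passed the filter through C57 libraries alone. Loxl1, a relative of Lox, was at 4.59 ± 0.679 TPM in C57 adults, and after rescaling it was lower in Hap-II adults (limma, adjusted p = 0.0233) and not in Hap-I adults or aged mice (adjusted p = 0.284 and 0.677). Lox was at 0.693 to 1.34 TPM in C57 libraries and 0.168 to 1.07 on western diet.

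Other genes of the same pathways were counted from lists that hold none of the 43. Of 32 tested genes of other matrix proteins, 13, 15 and 6 were lower after rescaling in Hap-I adults, Hap-II adults and aged Hap-I mice, against 14.2%, 9.77% and 4.09% of all genes, and 1, 2 and 1 were higher, against 17.8%, 12.9% and 3.55%. Higher in each was Col27a1, a fibrillar collagen best known from cartilage, at 3.94 ± 1.76 TPM in C57 adults and 10.3 ± 1.27, 10.4 ± 3.12 and 13.4 ± 4.42 on western diet (limma, rescaled adjusted p = 0.00051, 0.00115 and 0.00114). The other higher one in Hap-II adults was Col8a1, named after its values were seen, at 2.01 ± 1.36 TPM against 0.953 ± 0.286 (limma, rescaled adjusted p = 0.0206). Thbs1, which encodes thrombospondin-1, was lower after rescaling in all 3, from 26.6 ± 6.72 TPM to 4.30 ± 1.88, 5.35 ± 3.29 and 6.58 ± 1.86. Of 21 genes of collagen processing, 9, 8 and 2 were lower, of 20 genes of matrix turnover 4, 5 and 2, and of 18 matrix receptors 10, 8 and 2, and none of these was higher. The all-gene shares just given hold for these lists too. Plau, the urokinase gene, had 606 ± 68.5 TPM in C57 adults and 137 ± 57.8, 224 ± 138 and 161 ± 90.3 on western diet.

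Summed fibroblast markers and summed smooth muscle markers were lower in all libraries on western diet than in all C57 libraries. The sums of the other cell type lists given here overlapped. The 6 of 7 fibroblast markers found, which include Col1a1, Dcn and Lum, summed to 48.9 to 109 TPM in C57 libraries and 6.24 to 35.1 on western diet. Smooth muscle and pericyte markers summed to 80.9 to 145 and 26.4 to 73.6, endothelial markers to 344 to 397 and 113 to 365, and tubule markers to 3435 to 5866 and 446 to 3661. Urothelial markers ranged from 28.2 to 124 against 1.43 to 36.4. Adipocyte markers summed to 142 to 1104 TPM in C57 libraries and 106 to 332 on western diet, with Adipoq at 66.7 ± 56.5 in C57 adults and 2.23 ± 2.51 on the diet. C57 library 4 had the lowest adipocyte sum, 142 TPM, which is within the range on western diet, and its value lay above all libraries of Hap-I adults for 40 of the 43 genes, of Hap-II adults for 42 and of aged Hap-I mice for 35. The same held for 77.9, 63.9 and 57.3% of all genes tested. Macrophage markers, at 58.1 to 80 TPM in C57 libraries and 14.2 to 103 on western diet, overlapped, as did the podocyte markers given above. After rescaling, 5, 5 and 2 of 5 tested fibroblast markers were lower in Hap-I adults, Hap-II adults and aged Hap-I mice. Those 5 include Col1a1, Dcn and Lum, so that list is not separate from the matrix genes. In the same order, 3, 4 and 1 of 6 smooth muscle markers were lower, 2, 1 and 0 of 7 endothelial markers and 4, 2 and 3 of 7 tubule markers. Of 5 urothelial markers 0, 3 and 1 were lower, and of 2 tested adipocyte markers 1, 1 and 0. Of 6 podocyte markers 0 were lower in each, and of 5 macrophage markers 1 was lower in Hap-I adults and 2 were higher in aged mice. Over all genes, 14.2%, 9.77% and 4.09% were lower, and 3.55% were higher in aged mice. The part of these cell types in the matrix values was not tested.

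The second question was age on western diet. WD aged Hap-I mice had higher means than WD Hap-I adults for most matrix genes, with 39 of the 41 differences above 0, yet none passed. By limma, 0 of 41 were called, where 0.0232% of all genes were called higher and 0.00774% lower, and the lowest adjusted p was 0.12, for Lamb2. At an unadjusted p under 0.05 there were 18, or, over all genes tested, 16.1%. The median difference was 0.66 against 0.32 for all genes, and 0.33 after rescaling. With all 24 libraries sharing the spread, 4 were called higher (Col4a2, Lamb2, Lamc1 and Tgfb1), against 2.7% of all genes, and with weights that discount scattered libraries 15 were, against 15.8%. The number of calls thus changed with how the spread was estimated. After rescaling, 37 of the 41 differences were above 0.

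Lamb2, Lamc1, Tgfb1 and Eln did not overlap between the 2 groups, where 6.18% of all genes were higher and 0.642% lower without overlap. Lamb2 was at 5.97, 12.5, 8.87 and 9.15 TPM in aged Hap-I mice and at 5.68, 3.52, 3.45 and 3.26 in adults, a difference of 1.01 ± 0.24 (SE). Lamc1 was at 5.91, 7.75, 4.53 and 4.65 against 4.05, 2.33, 1.69 and 1.84 (0.97 ± 0.29, limma, adjusted p = 0.163). Tgfb1 was at 6.57, 6.91, 6.49 and 4.84 against 4.50, 2.37, 2.36 and 2.72 (0.87 ± 0.25, limma, adjusted p = 0.156). In all 3 genes adult library 1 was the one nearest to the aged libraries. It was also the one of its group with a low sum of the 4 Y-linked marker genes, 0.868 TPM against 13.2 to 38.2. The aged libraries 1 to 4 summed to 2.16, 0.772, 28.9 and 18.2 TPM. With the level of these markers as a covariate, 0 of 41 matrix genes were called for age by limma, against 4 of 12923 genes. Eln, the elastin gene, was low throughout, at 1.25 ± 0.226 TPM in the aged and 0.546 ± 0.139 in the adults. The largest differences were those of Col4a1 (1.2 ± 0.43) and Col4a2 (1.2 ± 0.38), whose groups overlapped (limma, adjusted p = 0.217 and 0.174).

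**Figure D4:**
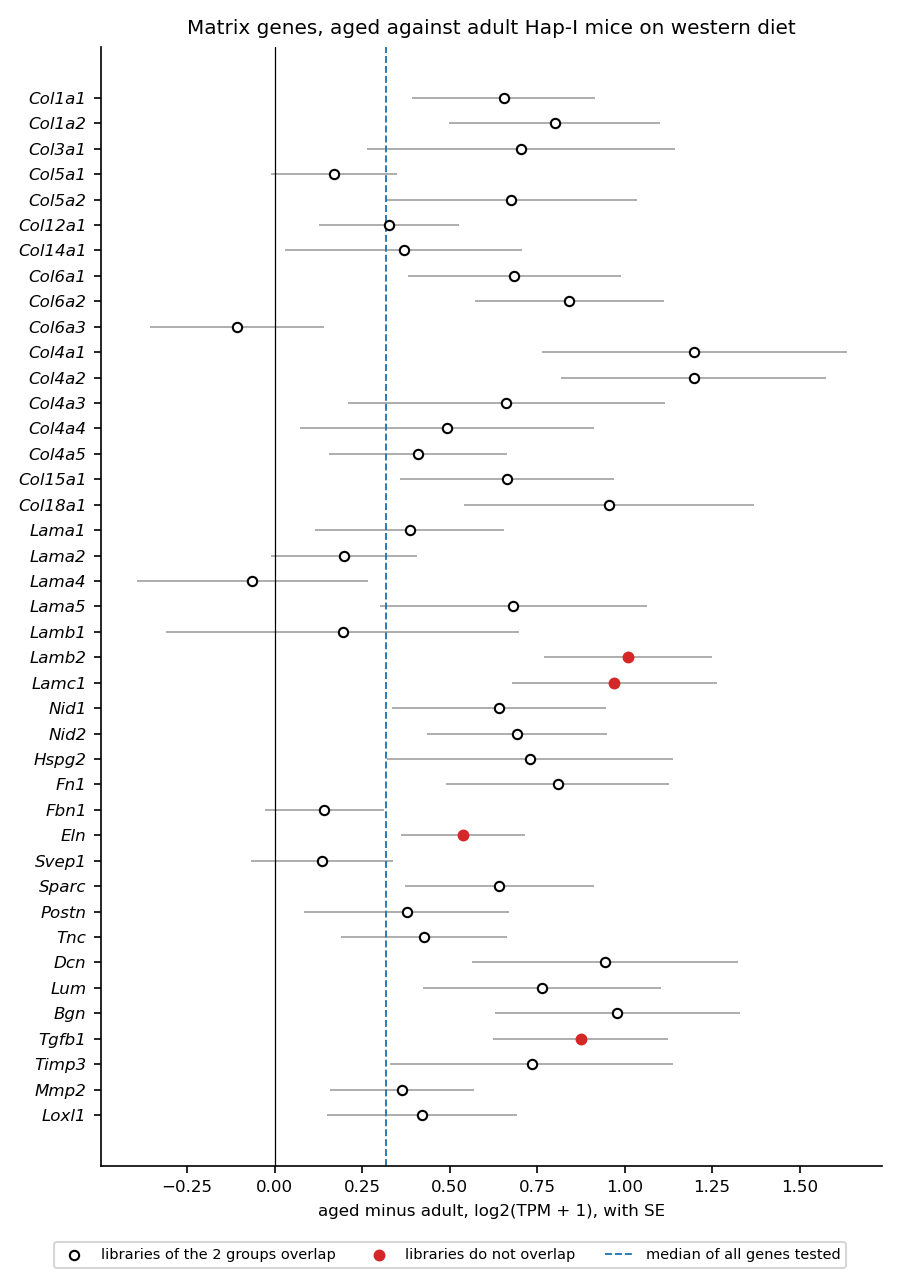
Aged minus adult Hap-I mice on western diet for the 41 tested genes, with log2(TPM + 1) and SE on the x axis (4 libraries a group); red points are genes whose libraries do not overlap, and the dashed line is the median of all genes. Points lie right of 0 for 39 genes and left for Col6a3 and Lama4, and the red points are Lamb2, Lamc1, Eln and Tgfb1.

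By role, the median difference of age was 0.94 for the proteoglycans, 0.69 for collagen VI and the basement membrane linkers, 0.66 for basement membrane collagens, 0.65 for fibrillar collagens, 0.43 for matricellular genes, 0.42 for remodelling genes, 0.39 for laminins and 0.34 for glycoprotein and elastic fibre genes, against 0.32 for all genes. Tgfb1 alone was at 0.87. Bgn (60 ± 13.3 against 33.8 ± 21.4 TPM) and Col18a1 (20.8 ± 10.4 against 9.85 ± 4.39) had adjusted p of 0.212 and 0.281 by limma. Col3a1 (6.91 ± 1.5 against 4.81 ± 3.82 TPM) and Fbn1 (0.648 ± 0.106 against 0.502 ± 0.214) were within their spread. Of the other lists, 0 of 32 other matrix genes, 0 of 21 collagen processing genes, 0 of 20 turnover genes, 0 of 23 TGF-beta genes and 0 of 18 receptors were called. Tubule markers summed to 648 to 3661 TPM in the aged and 446 to 1513 in the adults. Endothelial markers summed to 250.5 to 365 TPM in the aged and 154 to 246 in the adults, without overlap, while fibroblast markers (25.4 to 35.1 against 6.24 to 31.2), macrophage markers (39.4 to 103 against 14.2 to 54.4) and podocyte markers (64.5 to 208 against 48.4 to 107) overlapped. The fibroblast list again includes the matrix genes Col1a1, Dcn and Lum. No gene of these 5 lists was called for age by limma, and their part in the matrix values was not tested.

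The third question was the haplotype. In the comparison of the haplotypes in WD adults, 0 of 41 matrix genes were called by limma, 0 had an unadjusted p under 0.05, and all 43 overlapped between the groups. Over all genes, 0.0232% were higher, 0.0542% were lower and 3.26% had such an unadjusted p, and 0.294% were higher and 2.24% lower without overlap. Differences of Hap-I minus Hap-II ran from -0.69 for Col4a3 to 0.35 for Col6a3, with a median of -0.04 against -0.22 for all genes. The intervals are wide: the standard error was 0.45 for Col4a3 and 0.17 for Fbn1. The values nearest to a difference were those of Lamb2, at 3.98 ± 1.14 and 5.85 ± 1.76 TPM (limma, adjusted p = 0.817). Fn1 was at 2.07 ± 1.48 and 2.05 ± 0.540 TPM, Col3a1 at 4.81 ± 3.82 and 4.23 ± 1.72, and Col1a1 at 0.707 ± 0.739 and 0.625 ± 0.418.

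Single libraries carried much of the spread on western diet. Hap-I adult library 4 held the lowest of the 12 values for 25 of the 43 genes and Hap-II library 3 for 12, and these 2 had the fewest genes above 0. The highest of the 12 values lay in aged library 2 for 14 genes, in aged library 3 for 9 and in Hap-I adult library 1 for 7. These counts were not made over all genes, so nothing particular to matrix genes can be read from them. Without the 2 libraries with the fewest genes, 0 matrix genes were called for age or for haplotype.

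Hap-I adults without the diet, compared with C57 adults on all 24 libraries, had 33 of 41 matrix genes lower by limma and 1 higher, against 25.6% lower and 45.6% higher of 15200 genes, and 35 lower and 1 higher after rescaling, against 32.4% and 39.1%. Col4a3 and Col4a4 fell most. Col4a3 was at 0.291 ± 0.162 TPM against 31.3 ± 11.6 and Col4a4 at 0.204 ± 0.196 against 26.9 ± 7.53 (limma, adjusted p = 8.03e-10 and 1.47e-10). Col18a1 was at 1.98 ± 0.909, Lama5 at 3.29 ± 1.30 and Timp3 at 54.5 ± 14.3 TPM, all lower. Sparc was the higher one, at 282, 247, 231 and 302 TPM. Fn1 was at 22.1, 22, 22.6 and 26.7 TPM, inside the C57 range, and Dcn at 54.5 ± 16.4 against 54.4 ± 20.7 (limma, adjusted p = 0.989 for Fn1 and 0.904 for Dcn). Both of these differences changed sign under some alternatives.

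The Col4a1 to Col4a2 ratio lay between 0.106 and 0.482 in the 8 brain-like libraries, apart from the 1.10 to 1.87 in the 16 kidney libraries. Col4a3 and Col4a4 were at most 1.11 and 0.495 TPM in the brain-like libraries, too low for their ratio to be read. Lamc1 (10 ± 1.14 TPM in Hap-I adults) and Lamb1 (12.9 ± 3.24) were nearer to C57 levels than Lama5. Between aged Hap-I mice and Hap-I adults without the diet, 0 of 34 tested matrix genes were called by limma, against 0.0296% higher and 0% lower of 13497 genes, and 4 had an unadjusted p under 0.05, against 15.4% of all genes. Dcn was at 11.6, 38.0, 12.2 and 31.8 TPM in the aged and 39.3, 71.5, 41.6 and 65.4 in the adults, without overlap (-1.32 ± 0.37, limma, adjusted p = 0.211). Col1a2 and Tgfb1 were also lower without overlap and Lama2 higher, where 0.615% of all genes were lower and 10.5% higher in this way. The 4 leptomeningeal markers, genes of the membranes around the brain, summed to 316 to 1292 TPM over the 8 libraries, and their part in the Dcn values was not tested. The difference between the age effect on western diet and that in the brain-like libraries, which also differ in tissue, passed for 0 of 41 matrix genes, and for 0.0263% of 15200 genes. At an unadjusted p under 0.05 there were 21 of the 41, or, over all genes, 10.02%.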

How the data were processed

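The authors deposited 1 table of TPM values for 30153 mouse gene identifiers in 24 libraries. Per the submitters' processing notes, kallisto, DESeq2 and GRCm38 were used, with no versions or roles. Per the labels' protocols, libraries were stranded and made from polyadenylated RNA. Of the identifiers, 29811 matched a symbol in GENCODE M21. Gene positions are GRCm38, and sequences come from RefSeq tables.

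Differences were fitted with limma 3.58.1 in R 4.3.3 (Python 3.11.15, pandas 2.3.3, numpy 2.4.6) on log2(TPM + 1), with a mean-variance trend, two-sided, and Benjamini-Hochberg adjusted over all genes at 0.05. Genes needed 1 TPM in 4 libraries. Kidney comparisons used 16 libraries, age without the diet its 8, and brain-like against C57 all 24. A median-of-ratios rescaling is given beside the deposited scale. The script was tested on simulated data. Alternatives varied the pseudocount, filter, scaling, covariates, weights and libraries.

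Members and gene lists were chosen with earlier results of these data known. Each comparison names members past the threshold (up to 12 by adjusted p), up to 4 in each direction of at least 5 TPM without overlap, and a panel of 23 genes. Other genes are named only from the lists, up to 4 a list; the marker genes Eif2s3y and Adipoq were named beside the results they touch. Title numbers were not taken to pair libraries, since the correlations of same-numbered libraries ran from -0.13 to 0.54. TPM keep no read totals, so no counting interval can be given.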

Additional observations from a re-analysis of the deposited data

Results flagged for a closer look

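Of 138 groups of 4 libraries, 6 for each of 23 matrix genes, 8 held a library whose gap to the nearest other exceeded Dixon's 95% limit for its share of the group's range. Chance alone flags about 5% of groups. In C57 adults, Col4a3 was at 14.1 TPM in library 1 and at 35.3 to 39.6 in the others. In Hap-I adults on the diet, library 1 stood high for Lamb2, at 5.68 TPM against 3.26 to 3.52, and for Hspg2, at 5.86 against 2.34 to 2.91. The other 5 groups were brain-like. In adults there, library 3 was low for Col3a1, at 0.317 TPM against 1.58 to 1.63, and for Hspg2, at 0.870 against 1.61 to 1.72, while library 4 was high for Fn1, at 26.7 against 22 to 22.6. In aged mice there, library 2 was high for Col3a1, at 1.10 TPM against 0.299 to 0.400, and library 4 was low for Bgn, at 8.65 against 10.9 to 11.3. What set these libraries apart was not tested.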

How the results depend on the processing

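The counts of matrix genes called by limma depended on scaling, filter and libraries. For age on western diet the count was 0, but 15 with array weights and 4 with all 24 libraries. Calls over all genes went from 4 to 2199 and 443. Against C57, the count for Hap-I adults of 41 became 25 with median-of-ratios or quantile scaling, 27 with median-of-ratios scaling over kept nuclear genes (added after seeing the data) and 24 of the 24 tested under a filter of 5 TPM. Over all genes, 7715 of 12923 became 1831, 1893 and 1875 under these scalings and 5606 of 9083 at 5 TPM. For aged mice 24 became 14 with a pseudocount of 0.1 or a Y-linked covariate, 12 with either median-of-ratios scaling, quantile scaling or no mitochondrially encoded genes, and 11 of 24 at 5 TPM. Over all genes, 2100 of 12923 became 796 with that pseudocount and 403 with the covariate. Median-of-ratios scalings gave 529 and, over kept nuclear genes, 541, and quantile scaling gave 866. Removing mitochondrially encoded genes gave 393 of 13386, and 5 TPM gave 1141 of 9083. For Hap-II adults 37 became 21 of 24 at 5 TPM, and for brain-like adults 33 became 20 of 24. The stricter filter tests fewer genes, and all-gene counts went from 4774 of 12923 to 3384 of 9083 and from 3894 of 15200 to 3035 of 12062. Leaving out 1 library gave 35 to 40 for Hap-I adults, 9 to 30 for aged mice, 32 to 40 for Hap-II adults, 31 to 32 for brain-like adults and 0 to 0 for age and haplotype. In the comparisons with C57, in the same order, the counts over all genes were 5800 to 7788, 304 to 4584, 1678 to 6511 and 3611 to 3812. With the title number as a replicate block in the 12 diet libraries, 0 of 34 matrix genes were called for age and 0 for haplotype, and calls over all genes went from 4 to 2 and from 10 to 5.

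Some single differences changed sign. Fbn1 with age was -0.035 under quantile scaling. In aged mice against C57, Lama5 was 0.26 under either median-of-ratios scaling and 0.18 under quantile scaling, Sparc 0.17 and Timp3 0.12 under both median-of-ratios scalings, and in Hap-II adults Timp3 was 0.11 and 0.094. In brain-like adults against C57, a Y-linked covariate gave 0.016 for Col6a1, 0.16 for Lamc1 and 0.48 for Fn1, which was 0.055 without mitochondrially encoded genes. Dcn there was -0.29, -0.35 and -0.014 under median-of-ratios scaling, quantile scaling and array weights. Leaving out 1 library ranged over -0.28 to 0.22 for Dcn, with -0.09 and -0.04 without adult libraries 2 and 4, and over -0.19 to 0.18 for Fn1, with 0.02, 0.02, 0.01 and 0.15 without adult libraries 1, 2 and 3 and C57 library 2. The cause was not tested. TPM give no depth, so limits for low genes are unknown.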
